A study of Mus musculus with 50 samples.

Results

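The genes described here are the matrix metalloproteinases Mmp2, Mmp3, Mmp8, Mmp9, Mmp10, Mmp11, Mmp12, Mmp13 and Mmp14 and the tissue inhibitor of metalloproteinases Timp1. They were chosen by name, and all 10 are among the 21954 genes of the deposited tables. Their RNA was followed in the wound bed of the amputated mouse digit tip and in cultured macrophages. Digit 3 of the hindlimb of male C57Bl/6 mice aged 9 to 10 weeks was amputated through the distal phalanx, and neither a transgene nor a deletion is named for any group. The non-regenerative digits (NR) carry labelled amputation levels from 60% to 80% and were taken at 0, 3, 6, 12 and 24 hours and on days 3, 7, 14 and 21, with 3 digits at each time and 5 at 7 days. The intermediate digits (Int) carry labelled levels from 41% to 55% and were taken at 0 and 24 hours and on days 14 and 21, with 3 digits at each time. The paper defines non-regenerative digits by a level above 67% and places the intermediate class below it. Non-regenerative digits labelled 60% to 67% do not exceed that bound and were kept as labelled. Their levels also differ between times, with 64%, 64% and 67% at 12 hours and 71%, 79% and 79% at 21 days. A digit at 0 hours was itself amputated and collected at once, so it is not an intact digit. Bone marrow-derived macrophages came from female C57BL/6 mice aged 6 to 8 weeks and were left unpolarized (M0) or treated for 24 hours with 20 ng/ml interferon-gamma and 100 ng/ml LPS (M1) or with 20 ng/ml IL-4 (M2), with 3 libraries of each. The number of animals behind the macrophage libraries is not given in the labels, so their p-values measure the spread between libraries, which may be technical. The M0 labels read baseline and give no time, whereas those of M1 and M2 give 24 hours. The paper describes M0 cells in basal medium and collection after 24 hours of treatment, and it names no separate time for M0. By the labels alone, a difference in time may accompany the stimulus in comparisons with M0. Regenerative digits were not analysed here.

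Matrix metalloproteinases are zinc-dependent enzymes that cut collagens and other proteins of the extracellular matrix, and most of them are secreted as inactive proenzymes. The stromelysins MMP3 and MMP10 cut many matrix proteins and activate other proenzymes, the collagenases MMP8 and MMP13 open fibrillar collagen, and the gelatinases MMP2 and MMP9 degrade its unwound form. MMP14 is anchored in the cell membrane and activates the MMP2 proenzyme, MMP12 is the elastase of macrophages, and TIMP1 binds and blocks most of these enzymes. In skin wounds they are known for clearing the provisional matrix and for letting keratinocytes move, and in bone for the removal and remodelling of matrix.

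Of the 10 genes, 5 are neighbours on a single chromosome. In the GENCODE annotation of GRCm38, Mmp13 (chr9:7272514-7283331), Mmp12 (chr9:7344381-7369499), Mmp3 (chr9:7445822-7455975), Mmp10 (chr9:7502352-7510240) and Mmp8 (chr9:7558456-7568485) lie in this order on the plus strand. Mmp1b, which is not on the list, lies among them on the minus strand and its end overlaps that of Mmp12. The remaining members are spread out, with Mmp2 at chr8:92827291-92853420, Mmp9 at chr2:164940780-164955850, Mmp11 at chr10:75923222-75936496, Mmp14 at chr14:54431612-54445364 and Timp1 at chrX:20870166-20874735. Mmp11 overlaps Chchd10 and Timp1 overlaps Syn1, each on the opposite strand. Whether reads were counted by strand is not given in the sources used here, so reads of these overlapping genes may not be told apart.

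RefSeq promoter sequences of GRCm38.p6, which run from 250 bases before to 50 bases after a start site, were at hand for 8 of the 10 members in 9 windows, and for Mmp2 and Mmp9 there was none. The letters TGAGTCA, the binding sequence of the AP-1 transcription factors, were searched on both strands and TATAAA on the strand of the gene, and the motifs do not overlap each other in these windows. TGAGTCA was found in 4 of the 9 windows, all of them in the chromosome 9 cluster, and in 5.20% of 32851 promoters of that length. TATAAA was found in the same 4 windows and in 8.32% of all promoters. The first letter of TGAGTCA, or of its reverse complement TGACTCA, lay 35 bases before the start site of Mmp13, 46 before that of Mmp3, 63 before that of Mmp10 and 44 before the later of the start sites of Mmp12. The 100 bases before the start site of these genes are shown because Mmp3, Mmp10 and Mmp13 rose together in the digits and in M1 macrophages below, and the same stretch of Mmp8 and Mmp14 is shown for comparison. Capitals mark TGAGTCA or TGACTCA and TATAAA (that of Mmp12 begins after the start site and is not shown), all are on the plus strand, and a match is a description of the letters and not a measured site.
Mmp13, chr9:7272414-7272513: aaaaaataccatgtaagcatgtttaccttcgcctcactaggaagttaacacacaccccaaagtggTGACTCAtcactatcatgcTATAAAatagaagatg
Mmp3, chr9:7445722-7445821: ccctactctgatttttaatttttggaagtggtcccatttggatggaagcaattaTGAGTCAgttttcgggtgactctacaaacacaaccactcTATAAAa
Mmp10, chr9:7502242-7502341: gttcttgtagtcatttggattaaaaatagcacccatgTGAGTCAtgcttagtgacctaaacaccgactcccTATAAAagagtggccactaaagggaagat
Mmp12, later start, chr9:7347274-7347373: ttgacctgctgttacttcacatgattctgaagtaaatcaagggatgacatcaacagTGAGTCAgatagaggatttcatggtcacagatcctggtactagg
Mmp8, chr9:7558329-7558428: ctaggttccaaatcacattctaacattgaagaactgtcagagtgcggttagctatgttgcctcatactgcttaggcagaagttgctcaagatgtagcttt
Mmp14, chr14:54431498-54431597: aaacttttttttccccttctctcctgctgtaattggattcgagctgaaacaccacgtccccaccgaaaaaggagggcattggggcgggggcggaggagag

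Levels are given as normalized TPM, the deposited value per gene length and library, and are set side by side within the digits or within the macrophages only. Between 1468749 and 13011782 expected counts were assigned to genes in a digit and between 15683424 and 27904773 in a macrophage library. A gene was called when edgeR's quasi-likelihood test on the counts gave a Benjamini-Hochberg adjusted p under 0.05 over all tested genes and the group means of normalized counts, each plus 1, differed more than 2-fold. Non-regenerative replicate 2 at 14 days stands apart from all other digits, with normalized TPM summing to 3362791 against 795701 to 1434851 in the other 40, and 14-day results are given with and without it. Non-regenerative replicate 3 and intermediate replicate 1 at 14 days share animal mark, date and side in their labels, as do non-regenerative replicate 1 at 0 hours and replicate 3 at 12 hours, non-regenerative replicate 3 at 3 days and replicate 1 at 7 days, and intermediate replicates 2 and 3 at 0 hours with non-regenerative replicates 1 and 2 at 12 hours. Whether such digits came from the same animal is not stated in the labels, and they were compared as separate samples. The 7 keratinocyte markers summed to 22492 or more in every digit and to 3.29 or less in every macrophage library, and the 8 monocyte and macrophage markers to between 8171 and 9973 in the macrophages. In these bulk samples, fewer cells of a type and less RNA per cell cannot be told apart.

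Mmp3, the stromelysin that cuts many matrix proteins, made up most of the early rise of the family in level. It stood at 5.82, 2.50 and 7.79 normalized TPM in the 3 non-regenerative digits at 0 hours and at 5.53, 20.3 and 72.5 at 3 hours. At 6 hours it was at 681, 246 and 161, at 12 hours at 650, 1012 and 1172, and at 24 hours at 682, 1051 and 1112. Every digit from 6 to 24 hours thus lay above every digit at 0 and 3 hours, whereas the 3-hour digits overlapped those at 0 hours. Relative to 0 hours the log2 fold change was 6.12 ± 0.69 (SE) at 6 hours (edgeR, adjusted p = 0.00455), 7.52 ± 0.49 at 12 hours (0.000231) and 7.52 ± 0.48 at 24 hours (0.000109). At 3 days Mmp3 was at 161, 151 and 196, still above 0 hours by 4.998 ± 0.40 on the log2 scale (adjusted p = 0.00271) but lower than at 24 hours by a called difference of -2.49 ± 0.24 (edgeR, adjusted p = 0.0111). Without replicate 3 at 24 hours that fall was no longer called (adjusted p = 0.0582). The digits then spread widely, from 12.3 to 318 with a median of 71.9 at 7 days and to 48.1, 17.5 and 402 at 14 days, before returning to 14.6, 13.7 and 15.4 at 21 days. The 21-day level differed from that at 24 hours by -6.08 ± 0.27 on the log2 scale (edgeR, adjusted p = 8.95e-05) and from that at 0 hours by 1.44 ± 0.39 (adjusted p = 0.307).

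Mmp10, the second stromelysin, appeared in a narrower window. The 3 digits at 0 hours held 3 counts of it in all and those at 3 hours none, which allows up to 3 counts in each library. At 6 hours it stood at 13.1, 12.2 and 7.17 normalized TPM, at 12 hours at 19.3, 22.1 and 21, and at 24 hours at 12.6, 13.0 and 9.34. The 12-hour digits lay above all others of this group. Per total counts, the summed Mmp10 counts were 78.9 times those at 0 hours at 6 hours (95% exact interval 26.6 to 386, counting error only), 178 times at 12 hours (60.6 to 869) and 94.8 times at 24 hours (32.1 to 463), with edgeR adjusted p of 0.00671, 0.000686 and 0.00161. At 3 days it was back at 0.882, 0 and 3.24, and its counts were too low for the test at 3 hours and at 3, 7, 14 and 21 days against 0 hours. The digit with the highest later level was replicate 3 at 14 days with 11.3.

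Mmp13, a collagenase that opens fibrillar collagen, was called higher than at 0 hours at 12 and 24 hours and at no later time. At 0 hours it was at 6.34, 0.619 and 2.58 normalized TPM. At 6 hours 1 digit stood at 95.8 and the others at 5.48 and 4.19, so the groups overlapped and the change was not called (3.58 ± 1.31, edgeR adjusted p = 0.137). At 12 hours all 3 digits were close together at 72.0, 69.3 and 67.1, and at 24 hours they were at 86.6, 47.8 and 121. These changes were 4.62 ± 0.60 (edgeR, adjusted p = 0.00283) and 4.92 ± 0.68 (0.00317) on the log2 scale. Replicates spread over a wide range afterwards, with 25.7, 2.69 and 52.1 at 3 days, 0.244 to 33.4 with a median of 17.9 at 7 days, 49.5, 6.93 and 309 on day 14, and 8.16, 2.07 and 9.28 on day 21. The last level differed from that at 24 hours by -3.77 ± 0.58 (edgeR, adjusted p = 0.00531).

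Mmp8, the collagenase that neutrophils store, stayed low in every digit. Its largest value was 5.98 normalized TPM, or 44 counts, in a digit at 12 hours, where the others stood at 3.10 and 2.80, against 1.35, 0.819 and 0.382 at 0 hours. The rise of 2.30 ± 0.62 on the log2 scale was called (edgeR, adjusted p = 0.0356), but it was lost when any of 5 of the 6 digits was left out (all except replicate 1 at 0 hours), with an adjusted p of up to 0.143. No count of Mmp8 was found in any digit at 3 hours or in the intermediate digits at 21 days. It was the single member without a called difference between the 9 times in the fit over all 29 non-regenerative digits (edgeR F test, adjusted p = 0.194). The other 9 of 10 were called there, against 7.62% of all tested genes, with adjusted p from 3.11e-07 for Mmp2 to 0.0475 for Mmp13. The call of Mmp13 was lost in most fits without 1 digit, each fit without a 0-hour, 12-hour, 24-hour or 21-day digit among them, with an adjusted p of up to 0.0921, and that of Mmp11 without replicate 2 at 14 days (edgeR, adjusted p = 0.0726).

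Mmp9, the gelatinase found in neutrophil granules and in osteoclasts, was likewise called higher than at 0 hours at 12 and 24 hours and at no later time. It went from 9.01, 2.70 and 2.87 normalized TPM at 0 hours to 72.1, 38.6 and 24.6 at 12 hours and 122, 67.3 and 156 at 24 hours, with log2 fold changes of 3.45 ± 0.61 (edgeR, adjusted p = 0.00889) and 4.79 ± 0.59 (0.00209). At 3 days the digits were at 52.1, 11.0 and 37.1, at 7 days between 23.0 and 79.1 with a median of 72.4, and at 14 days at 57.9, 158 and 250. Every digit at 7 and 14 days thus lay above every digit at 0 hours, although neither change was called. At 21 days Mmp9 was at 16.5, 4.33 and 3.66 and overlapped the 0-hour digits, and it was lower than at 24 hours (-3.86 ± 0.63, edgeR adjusted p = 0.00686).

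Timp1, the inhibitor, was called higher than at 0 hours from 6 hours to 3 days and not on days 7, 14 and 21. It was at 7.58, 1.64 and 1.52 normalized TPM at 0 hours and at 9.71, 0 and 38.9 at 3 hours, where the digit at 38.9 holds the fewest counts of all digits. It reached 98.6, 34.8 and 22.3 at 6 hours, 132, 101 and 113 at 12 hours and 98.1, 98.2 and 170 at 24 hours. All digits from 6 to 24 hours lay above all those at 0 hours, with log2 fold changes of 4.01 ± 0.79 (edgeR, adjusted p = 0.0282), 5.23 ± 0.54 (0.00113) and 5.29 ± 0.58 (0.00119). It was still called at 3 days, at 88.9, 41.9 and 91.5 (4.50 ± 0.63, edgeR adjusted p = 0.0174). The calls at 6 hours and 3 days were each lost in 4 of the 6 fits that left out a digit, namely replicates 2 and 3 at 0 hours in both, replicates 1 and 2 at 6 hours, and replicates 1 and 3 at 3 days, with adjusted p of up to 0.115 and 0.102. At 7 days Timp1 ran from 22.03 to 129 with a median of 42.4, at 14 days it was at 72.4, 161 and 109, and at 21 days at 13.2, 5.59 and 34.5. The 21-day level was lower than that at 24 hours (-2.82 ± 0.59, edgeR adjusted p = 0.0170), a call lost without replicate 1 at 21 days (adjusted p = 0.0748).

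**Figure D1:**
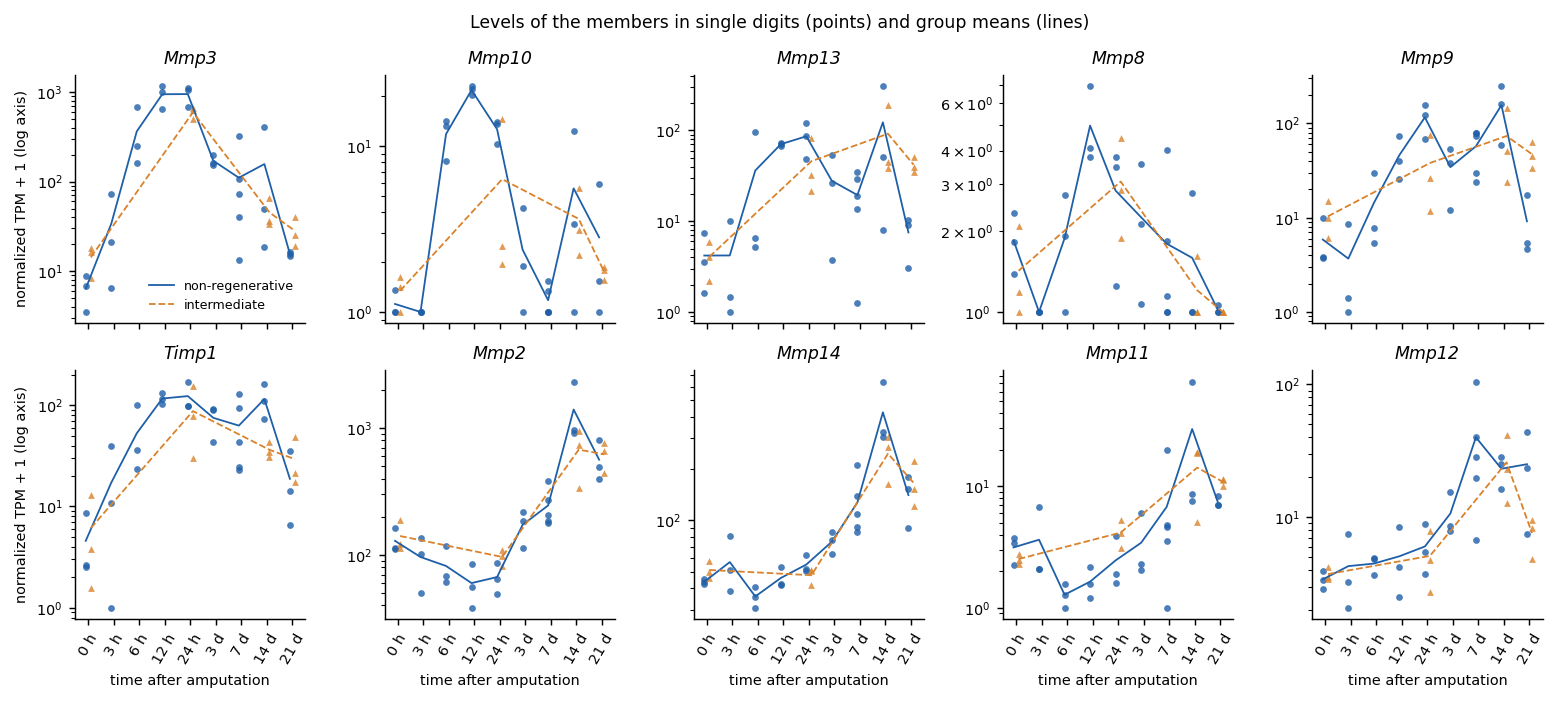
Normalized TPM plus 1 on a log axis (each panel has its own range) against time after amputation (times evenly spaced, not to scale) for each gene, with a point per non-regenerative (blue circles) or intermediate (orange triangles) digit and lines through the group means. Mmp3, Mmp10, Mmp13, Mmp8, Mmp9 and Timp1 climb between 3 and 24 hours, and the means of Mmp9 and Mmp13 are highest at 14 days in both groups. The means of Mmp2, Mmp14, Mmp11 and Mmp12 are highest from 7 days on, without that early climb. The top points of Mmp2, Mmp14 and Mmp11 at 14 days are all non-regenerative replicate 2.

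Mmp2, the gelatinase that mesenchymal cells make steadily, had the opposite course. It was the most abundant of the 10 genes at 0 hours, at 162, 112 and 111 normalized TPM, and stood at 37.4, 84.4 and 55.3 at 12 hours and 48.1, 63.8 and 86.0 at 24 hours. All digits at 12 and 24 hours were below all those at 0 hours, and at 24 hours the difference of -0.85 ± 0.22 had an adjusted p of 0.0321 (edgeR) but stayed under the 2-fold threshold. The later digits were at 186, 113 and 217 at 3 days, between 179 and 385 with a median of 206 at 7 days, at 968, 2328 and 912 at 14 days and at 493, 398 and 799 at 21 days. The rise from 24 hours to 3 days was called (1.41 ± 0.29, edgeR adjusted p = 0.0343), as were those from 24 hours to 21 days (3.13 ± 0.32, 0.00139) and from 0 hours to 21 days (2.28 ± 0.30, 0.0272). The first of these was lost in the fits without any 1 of 5 digits (all except replicate 2 at 3 days), with an adjusted p of up to 0.163, and the last in those without any 0-hour digit or replicate 1 at 21 days, with an adjusted p of up to 0.208.

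Mmp14, the membrane-anchored enzyme that activates the MMP2 proenzyme, was likewise highest at 14 days. It was flat at first, at 44.3, 41.2 and 42.6 normalized TPM at 0 hours and 50.8, 49.7 and 62.0 at 24 hours. It then stood at 75.4, 62.1 and 84.2 at 3 days, between 84.2 and 208 with a median of 108 at 7 days, at 327, 642 and 305 at 14 days and at 151, 89.2 and 178 at 21 days. Every digit from 3 days on was above every digit at 0 hours, and the rise at 21 days was called against 0 hours (1.71 ± 0.25, edgeR adjusted p = 0.0397) and against 24 hours (1.32 ± 0.27, 0.0151). Leaving out any digit except replicate 2 at 21 days ended the call against 0 hours (adjusted p of up to 0.262), and leaving out replicate 1 at 24 hours or at 21 days ended that against 24 hours (up to 0.0727).

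Mmp11, the stromelysin-like enzyme of stromal cells that is activated by furin inside the cell, was low and late. It was at 2.74, 1.25 and 2.41 normalized TPM at 0 hours, at 0, 0.274 and 0.561 at 6 hours, and at 5.98, 7.31 and 6.06 at 21 days. The 21-day digits lay above those at 24 hours (0.604, 0.886 and 2.86), with a called rise of 1.96 ± 0.56 (edgeR, adjusted p = 0.0475) that was lost in all fits without 1 digit but that without replicate 3 at 24 hours (adjusted p of up to 0.144). At 14 days it was at 7.58, 71.5 and 6.54, so that its group mean of 28.5 falls to 7.06 without replicate 2.

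Mmp12, the macrophage elastase, varied widely between digits of a single time. It was between 1.90 and 2.94 normalized TPM at 0 hours and between 2.71 and 7.94 at 24 hours. At 7 days the 5 digits ran from 5.71 to 104 with a median of 27.4, at 14 days they were at 27.4, 15.2 and 24 and at 21 days at 6.49, 43.2 and 22.6. All digits at these 3 times lay above all those at 0 hours, yet no change was called, with log2 values of 2.96 ± 0.77 (edgeR, adjusted p = 0.387), 1.93 ± 0.57 (0.403) and 2.45 ± 0.54 (0.179). The digit at 104, replicate 4 at 7 days, also had the highest monocyte and macrophage marker sum of that time, 347 against 95.9 to 214 in the others, and the highest fibroblast marker sum, and their part in this value was not tested.

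Counted over the list, 0 of 8 tested members were called at 3 hours (0% of all tested genes; 1 member at an unadjusted p under 0.05 in edgeR and 1 called by DESeq2). An unadjusted p under 0.05 at 3 hours was found in edgeR for 1362 of 12562 tested genes. At 6 hours 3 of 9 rose, where 3.23% of all tested genes rose and 4.85% changed in either direction. At 12 hours 6 of 10 rose (6.76% and 11.4% of all genes), at 24 hours 5 of 10 (5.57% and 10.7%), and by day 3 the count was 2 of 9 (0.557% and 0.723%). By day 21 it was 2 of 8 (0.394% and 0.452%). From 24 hours to 3 days 1 rose and 1 fell of 10, where 1.26% of all genes rose, 1.5% fell and 2.76% did either, and from 24 hours to 21 days 3 rose and 4 fell of 9, where 5.93% rose, 5.37% fell and 11.3% did either. Leaving out 1 digit also added calls: Mmp2 fell at 24 hours without replicate 3 of that time (edgeR, adjusted p = 0.0268), Mmp9 rose at 3 days without replicate 1 at 0 hours or replicate 2 at 3 days (0.0424 and 0.0413), Mmp9 and Mmp10 fell from 24 hours to 3 days without replicate 2 at 3 days (0.0466 and 0.0432), and from 24 hours to 21 days Mmp12 rose without replicate 1 (0.0471) and Mmp10 fell without replicate 2 (0.00465) at 21 days. Over all tested genes, the fit for Mmp2 called 1096 of 13808, and those for Mmp9 at 3 days 110 of 13858 and 203 of 13329. That from 24 hours to 3 days called 683 of 13036, and those to 21 days 807 of 13770 and 1473 of 13795. The sign of the late change against 24 hours thus divided the list, with Mmp2, Mmp11 and Mmp14 higher and Mmp3, Mmp9, Mmp13 and Timp1 lower.

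No member was called at 7 or 14 days against 0 hours. At 7 days 6 of 8 tested members had an unadjusted p under 0.05 in edgeR, as did 566 of 13046 tested genes. DESeq2 called 5 members, and edgeR called 0.0537% of all tested genes. Without replicate 2 at 7 days, Mmp9, Mmp14 and Timp1 were called higher (edgeR, adjusted p = 0.0475, 0.0393 and 0.0447), where 78 of 12810 tested genes were called. At 14 days all 8 had an unadjusted p under 0.05 in edgeR, as did 1044 of 13567 tested genes. DESeq2 called 7 members there, and edgeR called 0% of all tested genes. The share of all genes that DESeq2 called at 7 or 14 days is not given here. Without replicate 2 at 14 days, 7 of 8 members were called higher, against 1.92% of all genes in that fit. The log2 fold changes there were 3.03 for Mmp2 (edgeR, adjusted p = 0.00467), 5.34 for Mmp3 (0.0382), 5.06 for Mmp9 (0.0344), 2.26 for Mmp12 (0.0150), 5.85 for Mmp13 (0.0454), 2.85 for Mmp14 (0.00300) and 4.73 for Timp1 (0.0214), with 1.93 for Mmp11 the uncalled one (0.0810).

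The labels carry dates of an earlier and a later period, so the changes were also taken within each period, as differences of mean log2(normalized TPM + 1) and with no test for the few digits. The rise from 0 to 24 hours was 6.997 in the earlier and 7.57 in the later period for Mmp3, 3.795 and 4.17 for Mmp9, 3.57 and 3.59 for Mmp10, 3.82 and 4.34 for Mmp13 and 3.92 and 5.27 for Timp1. Its direction was therefore shared by both periods for each of the 5 genes called at that time. With all 41 digits in 1 edgeR fit 4 members were called at 12 hours (Mmp3, Mmp9, Mmp10 and Timp1), and with the date period added to it 3 (Mmp3, Mmp10 and Timp1), so that Mmp8 and Mmp13 were lost in both and Mmp9 with the date term. Against 0 hours, both of these fits also lost the calls of Mmp13 at 24 hours and of Mmp10 at 6 hours. All 12-hour digits have earlier dates and all non-regenerative 21-day digits later ones. Within the earlier dates the rise to 12 hours, against the single 0-hour digit of that period, was 7.07 for Mmp3, 4.44 for Mmp10, 3.75 for Timp1, 3.26 for Mmp13, 2.07 for Mmp9 and 1.02 for Mmp8. Within the later dates the rise to 21 days was 2.27 for Mmp2 and 1.65 for Mmp14.

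**Figure D2:**
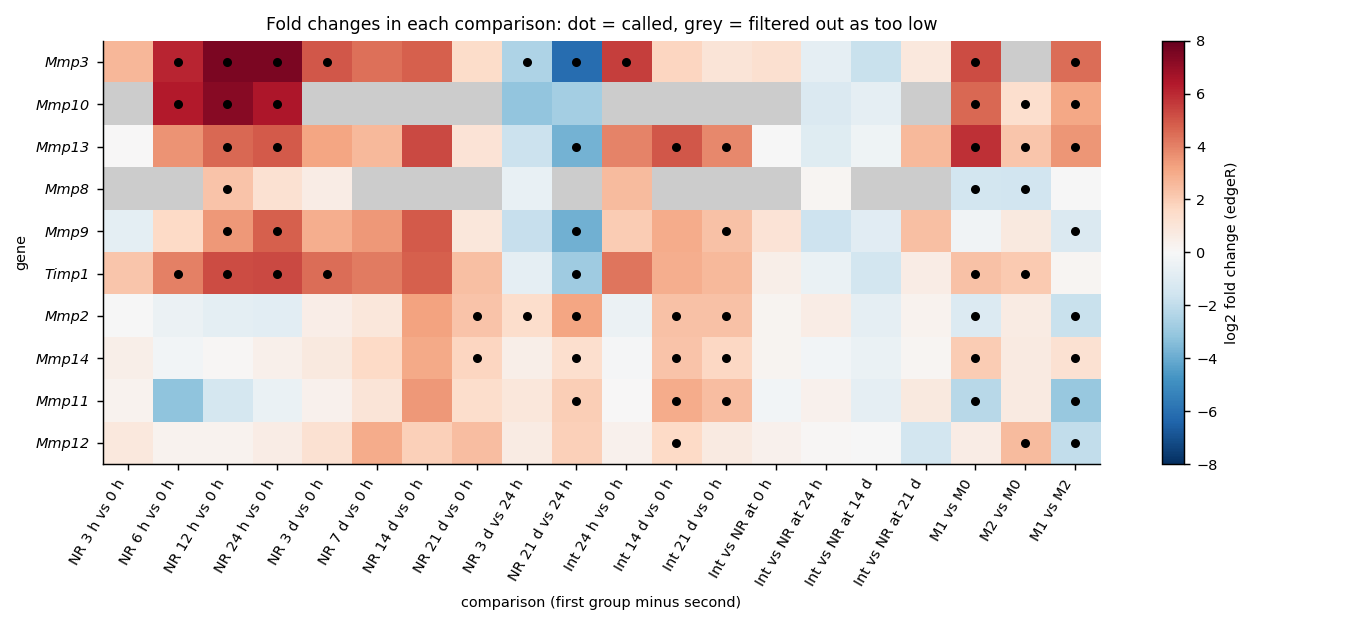
Log2 fold change from edgeR (color, first group minus second) of each gene in the 20 comparisons, with a black dot where the gene was called and grey where its counts were too low for the test. Against 0 hours in the non-regenerative digits, the dots of Mmp3, Mmp8, Mmp9, Mmp10, Mmp13 and Timp1 stand between 6 hours and 3 days. Those of Mmp2 and Mmp14 stand at 21 days. In the intermediate digits Mmp3 has a dot at 24 hours, and Mmp2, Mmp11, Mmp13 and Mmp14 have dots at 14 and 21 days. Mmp12 has 1 there at 14 days and Mmp9 at 21 days. No dot stands in the 4 comparisons of intermediate with non-regenerative digits.

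The intermediate digits were compared to ask whether the amount of tissue removed changes the course of these genes. Mmp3 rose from 15.2, 7.39 and 17.0 normalized TPM at 0 hours to 625, 495 and 660 at 24 hours (5.53 ± 0.35, edgeR adjusted p = 0.00237) and was at 65.0, 35.0 and 32.5 at 14 days and 24.1, 18 and 39.2 at 21 days. It was the single member called at 24 hours among 9 tested, against 0.0152% of all tested genes, in that direction or in either. Mmp13 at 82.3, 20.5 and 31.6 (3.99 ± 0.65, edgeR adjusted p = 0.0957) and Timp1 at 152, 29 and 78.1 (4.30 ± 0.91, 0.12) were also above all 0-hour digits there, without being called. Without replicate 1 or without replicate 2 at 24 hours, Mmp13 was called (edgeR, adjusted p = 0.0466 and 0.0482). These fits called 36 of 13593 and 37 of 13620 tested genes.

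At the late times 5 of 8 tested members were called higher than at 0 hours in the intermediate digits, both at 14 days (1.49% of all tested genes, and 1.68% in either direction) and at 21 days (1.23% and 1.39%). Mmp2 rose from 121, 112 and 187 normalized TPM to 337, 741 and 953 at 14 days and to 655, 439 and 767 at 21 days (2.37 ± 0.26 at 21 days, edgeR adjusted p = 0.00354). Mmp14 went from 45.0, 48.6 and 57.1 to 161, 265 and 304 and to 151, 120 and 222 (1.68 ± 0.21, 0.00558), and Mmp11 from 1.79, 1.47 and 1.29 to 4.05, 17.6 and 18 and to 10.4, 9.01 and 10.1 (2.45 ± 0.34, 0.00771). Each of these late digits lay above each 0-hour digit of its gene. Mmp13, at 1.22, 3.02 and 4.91 at 0 hours, was still at 192, 37.3 and 43.7 at 14 days and at 38.2, 34.2 and 50.5 at 21 days (3.83 ± 0.41, edgeR adjusted p = 0.00312). Mmp9 was called at 21 days only, at 61.9, 32.7 and 43.8 (2.32 ± 0.35, 0.0118), and Mmp12 at 14 days only, at 11.7, 40.6 and 22.3 (1.58 ± 0.29, 0.0365), and the difference between the times was not tested.

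Many of these late calls were lost when 1 digit was left out. At 14 days the calls of Mmp2, Mmp11, Mmp12, Mmp13 and Mmp14 (log2 fold changes of 2.35, 2.99, 1.58, 4.97 and 2.27) were all lost without replicate 2 at 0 hours, and over all fits without 1 digit their adjusted p reached 0.150, 0.207, 0.199, 0.140 and 0.0567. Leaving out replicate 1 at 0 hours ended the first 4 of them, leaving out replicate 3 at 0 hours ended Mmp11 and Mmp12, and leaving out replicate 2 or 3 at 14 days ended Mmp2, Mmp11 and Mmp12. At 21 days Mmp9, Mmp11 and Mmp14 were lost without replicate 2 at 0 hours, and Mmp9 also without replicate 1 or 3 at 21 days, and their adjusted p reached 0.0917, 0.0592 and 0.0546. Without replicate 3 at 0 hours Timp1 was called at 14 and 21 days as well (edgeR, adjusted p = 0.0205 and 0.0306). These fits called 179 of 13683 and 280 of 13704 tested genes.

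Set against each other at the same time, the 2 amputation levels gave no called member. At 0 hours 0 of 8 tested members were called (0% of all tested genes; 1 at an unadjusted p under 0.05 in edgeR; 0 by DESeq2), at 24 hours 0 of 10 (0%; 3; 0), at 14 days 0 of 9 (0%; 1; 0) and at 21 days 0 of 8 (0.648%; 5; 2). Over all tested genes, 491 of 13500, 1472 of 13024, 270 of 13421 and 1927 of 13736 had an unadjusted p under 0.05 in edgeR at these times. The collagenase and the gelatinase came nearest at 21 days. Mmp13 was at 38.2, 34.2 and 50.5 normalized TPM in the intermediate and 8.16, 2.07 and 9.28 in the non-regenerative digits (2.60 ± 0.49, edgeR adjusted p = 0.0621), and Mmp9 at 61.9, 32.7 and 43.8 against 16.5, 4.33 and 3.66 (2.43 ± 0.58, 0.109). The groups did not overlap for either gene, and Mmp13 was called when non-regenerative replicate 2 or replicate 3 was left out (edgeR, adjusted p = 0.00553 and 0.0474), as was Mmp9 without replicate 1 (0.0467). Over all tested genes these fits called 108 of 13960, 119 of 13958 and 9 of 13998. Amputation level and date cannot be told apart at this time, because all intermediate 21-day digits have earlier dates and all non-regenerative ones later dates.

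At 24 hours Mmp3 was lower in all intermediate digits than in all non-regenerative ones (-0.69 ± 0.24, edgeR adjusted p = 0.386). Without intermediate replicate 1 at that time, Mmp9, Mmp10 and Mmp13 were called lower in the intermediate digits (edgeR, adjusted p = 0.0130, 0.00581 and 0.0353). In that fit 653 of 13670 tested genes were called, against 0% with no digit left out. That replicate held the most Mmp9, Mmp10, Mmp13 and Timp1 of its group, at 75.0, 13.5, 82.3 and 152, and the highest neutrophil marker sum, 1350 against 140 and 414, and the part of the latter in this result was not tested. Intermediate replicate 1 is also the only digit of its group with an earlier date. The fit without it sets later-dated digits against non-regenerative ones of both periods, so amputation level and date are mixed in it. Within the earlier and the later dates the difference of mean log2(normalized TPM + 1) was 0.29 and -2.67 for Mmp10. It was -0.87 and -1.95 for Mmp9 and -0.31 and -0.88 for Mmp13. The change from 0 to 24 hours differed between the levels by -1.998 ± 0.53 on the log2 scale for Mmp3 (edgeR interaction test, unadjusted p = 0.00230, adjusted p = 0.498). In these interaction tests 0 of 10 members were called for 24 hours, 0 of 10 for 14 days and 0 of 9 for 21 days (0% of all tested genes each time), with 3, 1 and 2 at an unadjusted p under 0.05. Over all tested genes such a p was found for 1132 of 13996, 507 of 14133 and 846 of 14295.

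Summed per length, the 9 enzymes had an early and a late maximum made of different genes. In the non-regenerative digits the sum was 189.9 ± 39.1 normalized TPM (SD, n = 3) at 0 hours, against 1193 ± 265 at 12 hours and 1288 ± 271 at 24 hours. It was then 490 ± 132 on day 3, 2316 ± 880 on day 14 and 764 ± 243 on day 21, and without replicate 2 the digits of day 14 stood at 1488 and 2221. Mmp3 made up 2.85% ± 1.53 of it at 0 hours, 78.4% ± 5.49 at 12 hours and 73.3% ± 6.99 at 24 hours, but 2.006% ± 0.480 at 21 days. Mmp2 made up 67.4% ± 2.45 at 0 hours, 5.07% ± 0.414 at 24 hours and 72.9% ± 3.75 at 21 days. In the intermediate digits Mmp3 likewise held 71.5% ± 3.56 at 24 hours, and Mmp2 67.7% ± 1.24 at 21 days.

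In the non-regenerative digits the sum of the enzymes was also set against Timp1. It was 81.3 ± 44.1 times the Timp1 level at 0 hours, 10.9 ± 2.10 times at 24 hours, 6.92 ± 1.31 times at 3 days, 20.3 ± 0.206 times at 14 days and 61.0 ± 36.0 times at 21 days (SD, n = 3 digits each, normalized TPM). At 7 days the ratio ran from 5.95 to 30.1 over the 5 digits with a median of 9.72, and at 3 hours it was 20.2 and 7.27 in the digits with Timp1 counts. In the non-regenerative 14-day digits the ratio ran from 20.2 to 20.6 although the sums ran from 1488 to 3240. The intermediate 14-day digits did not share this narrow range, with ratios of 21.6, 34.3 and 48.4. This is a ratio of RNA levels and says nothing of active enzyme or of bound inhibitor.

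**Figure D3:**
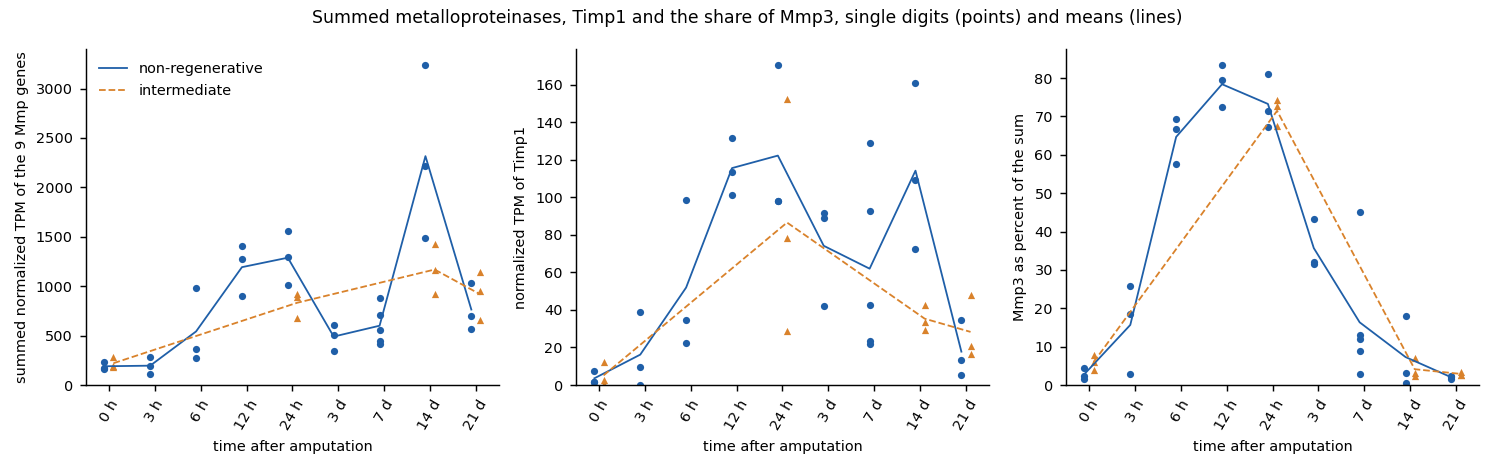
Summed normalized TPM of the 9 enzymes, normalized TPM of Timp1 and the share of Mmp3 in the sum against time after amputation (times evenly spaced, not to scale), with a point per digit and lines through the means of non-regenerative (blue) and intermediate (orange) digits. The share of Mmp3 lies between 57.7% and 83.3% in all digits from 6 to 24 hours and at 7.07% or less in all intermediate digits at 14 and 21 days.

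Across the 29 non-regenerative digits the members were set side by side as those called at 12 hours (Mmp3, Mmp8, Mmp9, Mmp10, Mmp13 and Timp1) and those not called then (Mmp2, Mmp11, Mmp12 and Mmp14). Spearman's rho of normalized TPM was 0.80 for Mmp13 and Timp1, 0.72 for Mmp3 with Mmp10, for Mmp3 with Timp1 and for Mmp9 with Timp1, and 0.67 for Mmp13 with Mmp9 and with Mmp10. The remaining pairs of the first set ran from 0.33 for Mmp8 and Mmp9 to 0.69 for Mmp3 and Mmp13. Among those not called at 12 hours rho was 0.85 for Mmp2 and Mmp14, 0.81 for Mmp12 and Mmp14 and 0.80 for Mmp11 and Mmp14. It was 0.74 for Mmp2 and Mmp11, 0.68 for Mmp2 and Mmp12 and 0.55 for Mmp11 and Mmp12. Between the sets it ran from -0.43 for Mmp3 and Mmp11 to 0.27 for Mmp12 and Timp1, leaving out Mmp9, with -0.42 for Mmp2 and Mmp3 and -0.06 for Mmp2 and Mmp13. These values describe digits that share their time point, library size and normalization. The sets come from calls in some of the same digits, so higher rho within than between them is partly built in. Mmp9 had 0.41 with Mmp14, where Mmp3 had -0.20, and 0.36 with Mmp12, 0.17 with Mmp2 and 0.07 with Mmp11.

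The genes whose log2 CPM (counts scaled to library size) ran most like a member over these digits, among 10929 genes with a mean of at least 5, were named for each by the 3 largest rho. For Mmp2 they were the collagen genes Col1a2 (0.97), Col5a1 and Col3a1 (0.97 each), for Mmp14 Fbln2 (0.92), Cthrc1 (0.92) and Fstl1 (0.90), for Mmp11 Fbln5 (0.89), Adamts10 (0.88) and Mrc2 (0.87), and for Mmp12 Postn (0.81), Kif26b (0.80) and Col12a1 (0.79). For Mmp3 they were Slc39a14 (0.92), Adam8 (0.92) and Lcn2 (0.91), for Mmp10 Amd1 (0.85), Fst (0.84) and Saa1 (0.80), and for Mmp13 Tmem2 (0.84), Cd53 (0.83) and Runx1 (0.83). For Timp1 they were Tax1bp3 (0.87), Pdpn (0.87) and Sec61a1 (0.87), for Mmp9 Fkbp1a (0.84), Basp1 (0.83) and P4hb (0.80), and for Mmp8 Arhgap26 (0.75), Aldh1a3 (0.75) and Sowahb (0.75).

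Marker genes of other cell types moved with both sets. The 8 neutrophil markers summed to 20.3 to 29.1 normalized TPM at 0 hours, 189 to 251 at 6 hours, 406 to 1135 at 12 hours, 1134 to 1299 at 24 hours and 646 to 1107 at 3 days, and to 3.56 to 28.3 at 21 days. S100a8 and S100a9 made up most of this sum, with means of 391 and 757 at 24 hours. Ngp, Camp and Ly6g of the same list had means of only 0.913, 0.180 and 0.072 there. Over the 29 digits the rho with this sum was 0.77 for Mmp9, 0.77 for Mmp3, 0.67 for Timp1 and 0.65 for Mmp13, and 0.03 for Mmp14. At 14 days the sum was 2462 in non-regenerative replicate 3 and 2169 in intermediate replicate 1, the digits with the same mark, date and side, and 21.96 to 316 in the other 4. These were also the highest 14-day digits of their groups for Mmp3, Mmp9, Mmp10 and Mmp13, and the part of the neutrophil markers or of the shared labels in this was not tested.

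The 7 fibroblast markers summed to 1622 to 2976 at 0 hours, 612 to 1547 at 24 hours, 16139 to 34212 at 14 days and 7595 to 16858 at 21 days. Their rho was 0.96 with Mmp2, 0.88 with Mmp14, 0.78 with Mmp11 and 0.70 with Mmp12, and 0.06 with Timp1. The 7 osteoclast markers, summing to 26.5 to 61.5 at 0 hours, 39.4 to 101 at 24 hours and 481 to 676 at 14 days, had a rho of 0.89 with Mmp14, 0.86 with Mmp2, 0.76 with Mmp12 and 0.51 with Mmp9. The 8 monocyte and macrophage markers summed to 69.1 to 116 at 0 hours, 57.4 to 122 at 24 hours and 166 and 169 at 14 days, apart from 1595 in replicate 2. Their part in the results was not tested.

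**Figure D4:**
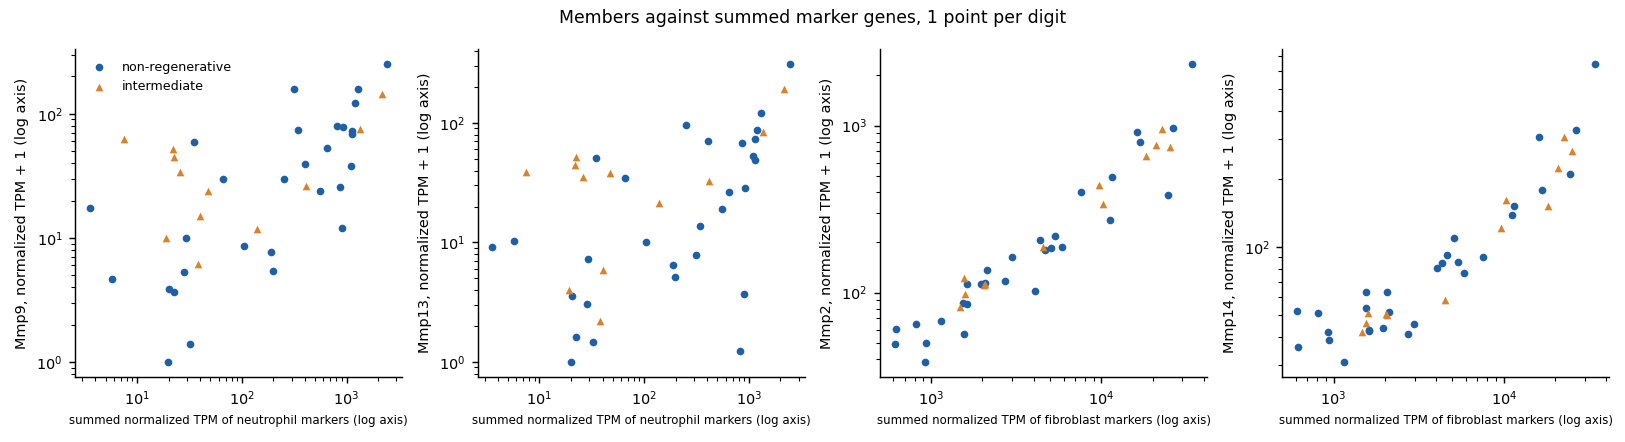
Normalized TPM plus 1 of Mmp9, Mmp13, Mmp2 and Mmp14 against the summed normalized TPM of 8 neutrophil or 7 fibroblast marker genes, both on log axes, with a point per non-regenerative (blue) or intermediate (orange) digit. Mmp2 and Mmp14 rise along the fibroblast sum (rho 0.96 and 0.88 in the non-regenerative digits), while Mmp9 and Mmp13 scatter more widely along the neutrophil sum (0.77 and 0.65).

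The macrophage cultures show which of these genes differed between stimuli in macrophages without other digit cells. Of the 10 members, 5 were called higher and 3 lower in M1 than in M0, where 20.1% of all tested genes were higher, 26% lower and 46.1% either, and 4 of 9 tested were called higher and 1 lower in M2, where 11% were higher, 11.3% lower and 22.3% either. Between M1 and M2, 4 were higher and 4 lower in M1, where 20.1% were higher, 27.9% lower and 48% either. With a background this large, the counts alone set the members little apart, and the sizes of the changes are given gene by gene.

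Mmp13 had the largest log2 fold change of the members in M1. It was at 12.8, 18.4 and 16.1 normalized TPM in M0, at 925, 925 and 813 in M1 and at 79.6, 74.2 and 76.8 in M2. No libraries of different states overlapped, and the log2 fold change from M0 was 5.83 ± 0.12 in M1 (edgeR, adjusted p = 4.52e-13) and 2.23 ± 0.10 in M2 (7.95e-09). Mmp12 had the reverse order of M1 and M2, at 123, 91.3 and 130 in M0, 154, 186 and 184 in M1 and 679, 718 and 680 in M2. Its rise in M2 was 2.51 ± 0.11 (edgeR, adjusted p = 4.86e-09), whereas that in M1, 0.61 ± 0.11, stayed under 2-fold, and the direct difference of M1 from M2 was -1.99 ± 0.07 (adjusted p = 2.22e-12). In each state 1 enzyme thus led the sum of the 9, with Mmp13 at 62.8% ± 2.62 (SD, n = 3 libraries) in M1 and Mmp12 at 71.3% ± 1.503 in M2.

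Timp1 was higher in M1 and in M2 than in M0. It was at 97.5, 117 and 113 normalized TPM in M0, at 565, 537 and 546 in M1 and at 483, 492 and 509 in M2, with log2 fold changes of 2.34 ± 0.07 (edgeR, adjusted p = 8.87e-12) and 2.118 ± 0.07 (6.73e-10). The ratio of the summed enzymes to Timp1 stayed between 1.88 and 2.77 in all 9 libraries. Mmp14 was at 63.5, 81.7 and 74.5 in M0, at 288, 311 and 306 in M1 and at 142, 119 and 122 in M2, a called rise in M1 (2.04 ± 0.08, edgeR adjusted p = 1.51e-10), with 0.74 ± 0.09 in M2 under the 2-fold threshold.

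The stromelysins were low but answered to the M1 stimulus. Mmp3 was at 0.107, 0.173 and 0.382 normalized TPM in M0, 16 counts in all, at 4.44, 16.9 and 4.66 in M1 and at 0.213, 0.557 and 0.268 in M2, and Mmp10 at 0.443, 0.558 and 0.398, at 8.64, 17.0 and 8.57 and at 1.0096, 1.81 and 0.973. The log2 fold change in M1 was 5.22 ± 0.65 for Mmp3 (edgeR, adjusted p = 9.82e-06) and 4.57 ± 0.33 for Mmp10 (5.57e-08). M1 replicate 2 and M2 replicate 2 were highest for both genes. The rise of Mmp10 in M2 (1.37 ± 0.34, edgeR adjusted p = 0.00373) was no longer called without M2 replicate 2, where its fitted log2 value was 1.02 and the means plus 1 differed by less than 2-fold.

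Mmp2, Mmp8 and Mmp11 fell in M1. Mmp8 was at 22.5, 17.1 and 20.3 normalized TPM in M0 against 7.54, 7.64 and 6.78 in M1 and 7.50, 7.55 and 6.94 in M2, and its change was called in M1 (-1.44 ± 0.11, edgeR adjusted p = 6.03e-08) and in M2 (-1.51 ± 0.10, 1.91e-07), with a difference of M1 from M2 of -0.03 ± 0.10. Mmp2 was at 19.3, 27.8 and 25.9 in M0, 11.9, 12.6 and 10.1 in M1 and 37.1, 38.0 and 41.3 in M2, and Mmp11 at 1.55, 2.76 and 2.75, at 0.553, 0.488 and 0.399 and at 3.39, 3.53 and 4.96. Both were called lower in M1 than in M0 (-1.07 ± 0.13 and -2.23 ± 0.33, edgeR adjusted p = 1.03e-05 and 4.81e-05), and the call of Mmp2 was lost under the fold threshold without M1 replicate 3 or M0 replicate 2. Mmp9 was at 11.7, 11.8 and 13.2 in M0, 9.55, 9.10 and 11.4 in M1 and 20.5, 21.2 and 23.5 in M2, and was called lower in M1 than in M2 only (-1.15 ± 0.09, 1.98e-08). Marker sums of other types also differed between the states, with the 8 neutrophil markers at 428 to 442 in M0, 153 to 185 in M1 and 470 to 527 in M2, the 7 osteoclast markers at 96.3 to 112 in M0, 35.0 to 42.4 in M1 and 491 to 528 in M2 and the 7 fibroblast markers at 575 to 860, 377 to 438 and 1094 to 1228, and their part in the lower levels in M1 was not tested.

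**Figure D5:**
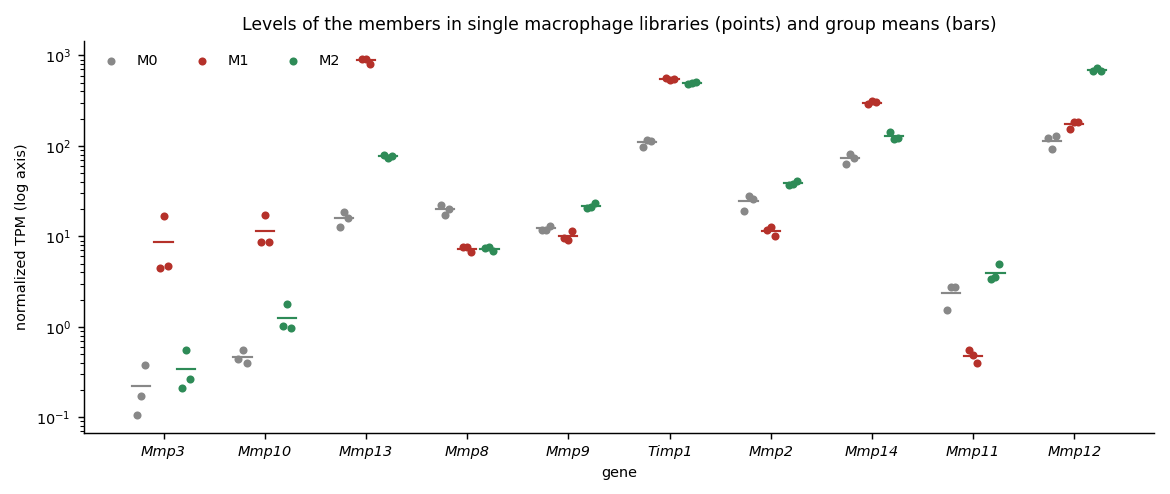
Normalized TPM on a log axis of each gene in the 3 libraries each of M0 (grey), M1 (red) and M2 (green) macrophages, with bars at the group means. Mmp13 is highest in M1 (means of 15.8, 888 and 76.9 in M0, M1 and M2), Mmp12 in M2 (115, 175 and 692), and Timp1 is raised in both (109, 549 and 495).

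Mmp3, the leading early enzyme of the digits, and Mmp13, the leading enzyme of M1, both rose in the early digits and in M1, in separate experiments whose tables were normalized separately. Mmp8 rose in the 12-hour digits (2.30 on the log2 scale) and fell in M1 and M2, and Mmp9, up at 12 and 24 hours, differed by -0.30 ± 0.10 between M1 and M0 (edgeR, adjusted p = 0.0162, under 2-fold).

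Other genes of matrix breakdown were counted from lists. Among 4 ADAMTS proteases, 6 tested genes of the plasminogen cascade and 4 partners, 2, 4 and 2 were called higher at 6 hours, 3, 4 and 2 at 12 hours and 3, 4 and 1 at 24 hours, and none lower. Of all tested genes, 3.23%, 6.76% and 5.57% were called higher at these times, and 4.85%, 11.4% and 10.7% in either direction. Those with the smallest adjusted p at 24 hours included Serpinb2 (3.24 ± 0.22), Plaur, the urokinase receptor (4.49 ± 0.41), and Lcn2, which binds MMP9 (6.13 ± 0.71), with edgeR adjusted p of 0.000136, 0.000503 and 0.00165. Among 14 other metalloproteinases, 1 of 4 to 6 tested was called higher at 6, 12 and 24 hours, the collagenase Mmp1b of the same cluster, which was listed at 0 in every 0-hour digit (edgeR, adjusted p = 0.0216, 0.00269 and 0.00279). Among the other inhibitors (3 tested), Reck fell at 24 hours (-1.67 ± 0.34, edgeR adjusted p = 0.0137), and Timp2, which takes part in MMP2 activation, was higher in the intermediate digits at 14 days (1.75 ± 0.26, 0.0148) and 21 days (1.61 ± 0.20, 0.00517). The median log2 fold change of all tested genes was -0.04 at 24 hours, and those of the 6 tested plasminogen cascade genes and the 4 ADAMTS proteases were 2.52 and 2.05.

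In M1, 3 of 8 tested other metalloproteinases were higher and 4 lower than in M0, where 20.1% of all tested genes were higher and 26% lower, with Mmp25 at 6.72 ± 0.11 (edgeR, adjusted p = 5.81e-14). Timp2 and Timp3 fell in M1 (-2.93 ± 0.05 and -1.45 ± 0.21), while Timp1 rose, so the inhibitors did not move together. In M2, 3 of 4 ADAMTS proteases and 3 of 6 plasminogen cascade genes rose, against 11% of all tested genes, and Timp3 rose by 1.80 ± 0.20 (edgeR, adjusted p = 1.05e-05).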

How the data were processed

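RNA was sequenced from 41 digits and 9 macrophage libraries. The authors mapped reads to mouse genes (mm10) and deposited RSEM (1.2.3) expected counts, and a second set of values, TPM rescaled with median-by-ratio factors for each library, a signal whose column sums differ between libraries. Digits and macrophages were normalized separately and were not compared in level. In the deposited digit values, 26 gene names had turned into dates and were restored. RSEM divides reads that match several genes, and 98.0% of the values of Mmp12 and 76.3% of those of Mmp10 were not whole (tolerance 0.005), so levels of near-identical genes carry that uncertainty.

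Expected counts were rounded and tested with edgeR 4.0.16 in R 4.3.3 (filterByExpr, TMM, quasi-likelihood test, Benjamini-Hochberg over all tested genes) on the groups compared only. A gene was called at an adjusted p under 0.05 and a more than 2-fold change of mean normalized count plus 1. The study used EBSeq, which was not at hand. Differences between the 9 times and interactions with amputation level were fitted over all digits concerned. Alternatives were DESeq2 1.42.0, limma 3.58.1 on log2(normalized TPM + 1), other size factors, no count filter, no fold threshold, wider fits, a date term, a replicate block for macrophages and leaving out each library. Scripts were tested on simulated data.

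Totals ran from 1468749 to 13011782 counts in digits, and intervals cover counting error only. Replicates were distinct libraries, with a chi-square per degree of freedom of 3.05 or more in 55 pairs. All members are named, and other pathway genes by smallest adjusted p, at most 4 in a comparison. A pathway gene that this rule would name is not reported here. Further named genes are the 3 most similar to each member, passing over placeholder names. The members and lists were chosen with earlier results of these data known. For the macrophage libraries the r of deviations from the group means was -0.075 to 0.066 for the same number and -0.056 to 0.113 for different numbers. With 3 libraries of each state these values cannot decide whether the numbers mark shared cultures or animals, and the labels do not say.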

Additional observations from a re-analysis of the deposited data

Results flagged for a closer look

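In the group of 5 non-regenerative digits at 7 days, the highest digit for Mmp11, replicate 4, stood at 18.8 normalized TPM against 3.76 in the next, a gap of 0.801 of the whole range (0.8006), above Dixon's 95% critical value of 0.710. For Mmp8 the highest digit of that time stood at 3.01 against 0.836 in the next, a gap of 0.722 of the range (0.7219). With 10 genes examined in this group, chance alone marks about 1 in 20 of such sets of values.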

How the results depend on the processing

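Of 59 calls of members in 20 comparisons, 39 remained in every fit without 1 library, and none of 2328 recomputed fold changes reversed a called direction. A reversal could count only where the main or the recomputed fit called the gene, and 58 fold changes uncalled in both changed sign. Depth limits Mmp8 and Mmp10, which had few or no counts in many digits. The causes of the changes below were not tested.

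With DESeq2 the number of members called was 1 at 3 hours, 5 on day 7, 7 on day 14, 4 on day 21, 4 from 24 hours to 3 days, 4 at 24 hours and 8 at 14 days in the intermediate digits, and 2 between amputation levels at 21 days. With all 41 digits in 1 fit it was 5 at 7 days, 7 at 14 days, 0 from 24 hours to 3 days, 4 from 24 hours to 21 days, and 2 at both 14 and 21 days in the intermediate digits. Adding the date period to that fit gave the same counts, with 3 at 12 hours and 2 at 24 hours in the intermediate digits. With limma it was 0 at 21 days, 1 from 24 hours to 3 days and 3 at 14 days in the intermediate digits. Without the count filter it was 4 from 24 hours to 3 days, 2 at 24 hours in the intermediate digits and 1 between levels at 21 days. Without the fold threshold it was 9 in M2 against M0. Before adjustment, 9945 of the 12976 genes in that edgeR comparison already reached p under 0.05, so this count says little of the members in particular. Over all times, the DESeq2 likelihood ratio test called 4398 of 18918 genes, against 1100 of 14434 in the edgeR F test. For the other settings of this paragraph the share of all genes called is not given. Their counts therefore cannot separate a result of the members from a more liberal fit.

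Leaving out 1 library gave 0 to 0 calls at 3 hours, 2 to 3 at 6 hours, 5 to 6 at 12 and at 24 hours, 1 to 3 at 3 days, 0 to 3 at 7 days, 0 to 7 at 14 days, 0 to 2 at 21 days, 0 to 4 from 24 hours to 3 days and 5 to 7 from 24 hours to 21 days. In the intermediate digits it gave 1 to 2 at 24 hours, 0 to 5 at 14 days and 2 to 6 at 21 days, and between levels 0 to 3 at 24 hours, 0 to 1 at 21 days and 0 at 0 hours and 14 days. It gave 7 to 8 for M1 against M0, 4 to 5 for M2 against M0, 8 for M1 against M2, 8 to 9 for the test over all times, and 0 to 1 for the interaction at 24 hours. A replicate block for the macrophages left the counts at 8, 5 and 8, and 2 of the 9 libraries correlated best with their own number, so the numbers were not taken as pairing. Counts over all genes are given above only for fits without 1 library that added calls. For the rest that background is missing here.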
